A study of Mus musculus with 8 samples.

Results

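Serum response factor, its ternary complex factor partners and its myocardin-related partners were followed on 8 mouse expression arrays through the genes Srf, Elk1, Elk3, Elk4, Mrtfa and Mrtfb. The members are all probe sets whose annotation names one of these genes alone, which gave 12 of the 22626 probe sets that are not controls and covered all 6 genes, of 12393 genes that the array names alone. Elk3 and Elk4 had 3 probe sets each, Elk1 and Srf 2 each, and Mrtfa and Mrtfb 1 each. RNA came from cultured fibroblasts of E11 mouse embryos that had passed through crisis, the point after which only immortalised cells of a primary culture keep dividing. The cells were WT or Med23-/- (KO), and all of them were first starved for 16 h in 0.5% FBS (fetal bovine serum). In each genotype 2 arrays were made from cells harvested at that point and 2 from cells then given 20% FBS for 30 min, so each group below has n = 2 arrays. The labels do not say whether the arrays of a group came from separate cultures, or how many lines stand behind each genotype, so p-values measure the spread between these arrays only and loss of MED23 cannot be told apart from other differences between the KO and WT cells.

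SRF binds a short DNA element called the CArG box, a run of A and T flanked by C and G, and turns on genes together with partners from 2 families. The ternary complex factors (TCFs) ELK1, ELK3 and ELK4 carry an ETS DNA-binding domain, sit beside SRF on serum response elements and are phosphorylated by ERK when growth factors arrive. Phosphorylated ELK1 is an activator known to contact MED23, a subunit of the Mediator complex that links activators to RNA polymerase. The myocardin-related factors MRTFA and MRTFB are held by monomeric actin and move to SRF in the nucleus when that actin is drawn into filaments. These factors are regulated largely through phosphorylation and location, which an RNA array does not measure.

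The Med23 probe set read 4901 and 5411 in starved WT cells and 3595 and 3577 after serum, against 28 and 132.5 in starved KO cells and 34.6 and 36.9 after serum, which matches the labels. Replicate arrays correlated at r = 0.973 to 0.980 over all probe sets. Of 13 fibroblast markers 9 were at or above the 40th percentile on all 8 arrays, while Thy1 and Fap were below it on every array. The summed marker signal was 187185 to 210777 in WT arrays and 309677 to 415577 in KO arrays, and the part of this in the genotype comparisons below was not tested. Most of these markers were higher in starved KO than in starved WT cells, but not all. Col1a2, a collagen chain, averaged 4726 in starved WT and 80479 in starved KO cells. Pdgfra, a receptor for platelet-derived growth factor, averaged 126.7 and 13467. Col3a1 (10713 and 50464), Pdgfrb (2751 and 7491), S100a4 (919.7 and 6532) and Lum (146.7 and 1483) were higher too. Col1a1, Col5a1 and Vim were higher by less. Dcn, a matrix proteoglycan, was lower, at 6523 and 2933, and Fn1, fibronectin, was nearly level, at 50854 and 52138. The lowest Col1a2 value on any array was 581.4, far below its means of 4726 in starved and 5093 in serum-treated WT cells, so its WT arrays differed widely. In bulk RNA of this kind, fewer cells of a type and less RNA per cell cannot be told apart. Of the 5 epithelial, 5 endothelial, 4 macrophage and blood, 4 neural and 4 muscle markers on the array, 3, 4, 2, 2 and 3 were below the 40th percentile on all 8 arrays. Among the rest, the macrophage marker Csf1r was at or above it on all 8 arrays and the muscle marker Des on 6. Some of the others had unlike levels in the genotypes, as the keratin Krt19 averaged 768.4 in starved WT and 120.8 in starved KO cells, the neuronal tubulin Tubb3 639.7 and 20.4, and Map2 346.8 and 1717. The summed epithelial markers read 1325 to 1787 on WT arrays and 407.5 to 1073 on KO arrays, and their part in the genotype results was not tested either.

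Of the 12 member probe sets 11 passed a filter on dim signal (at or above the array's 40th percentile on at least 2 arrays) and were tested with limma on log2 of signal plus 16, and the text calls a difference at an adjusted p under 0.05. The exception was Elk4 probe set 1450549_s_at, which read between 75.0 and 308.3 on the 8 arrays, where the 40th percentile lay between 412.6 and 497.4, and gets no test. Mrtfb reached that percentile on 3 arrays and the dimmer Elk1 probe set on 6.

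**Figure D1:**
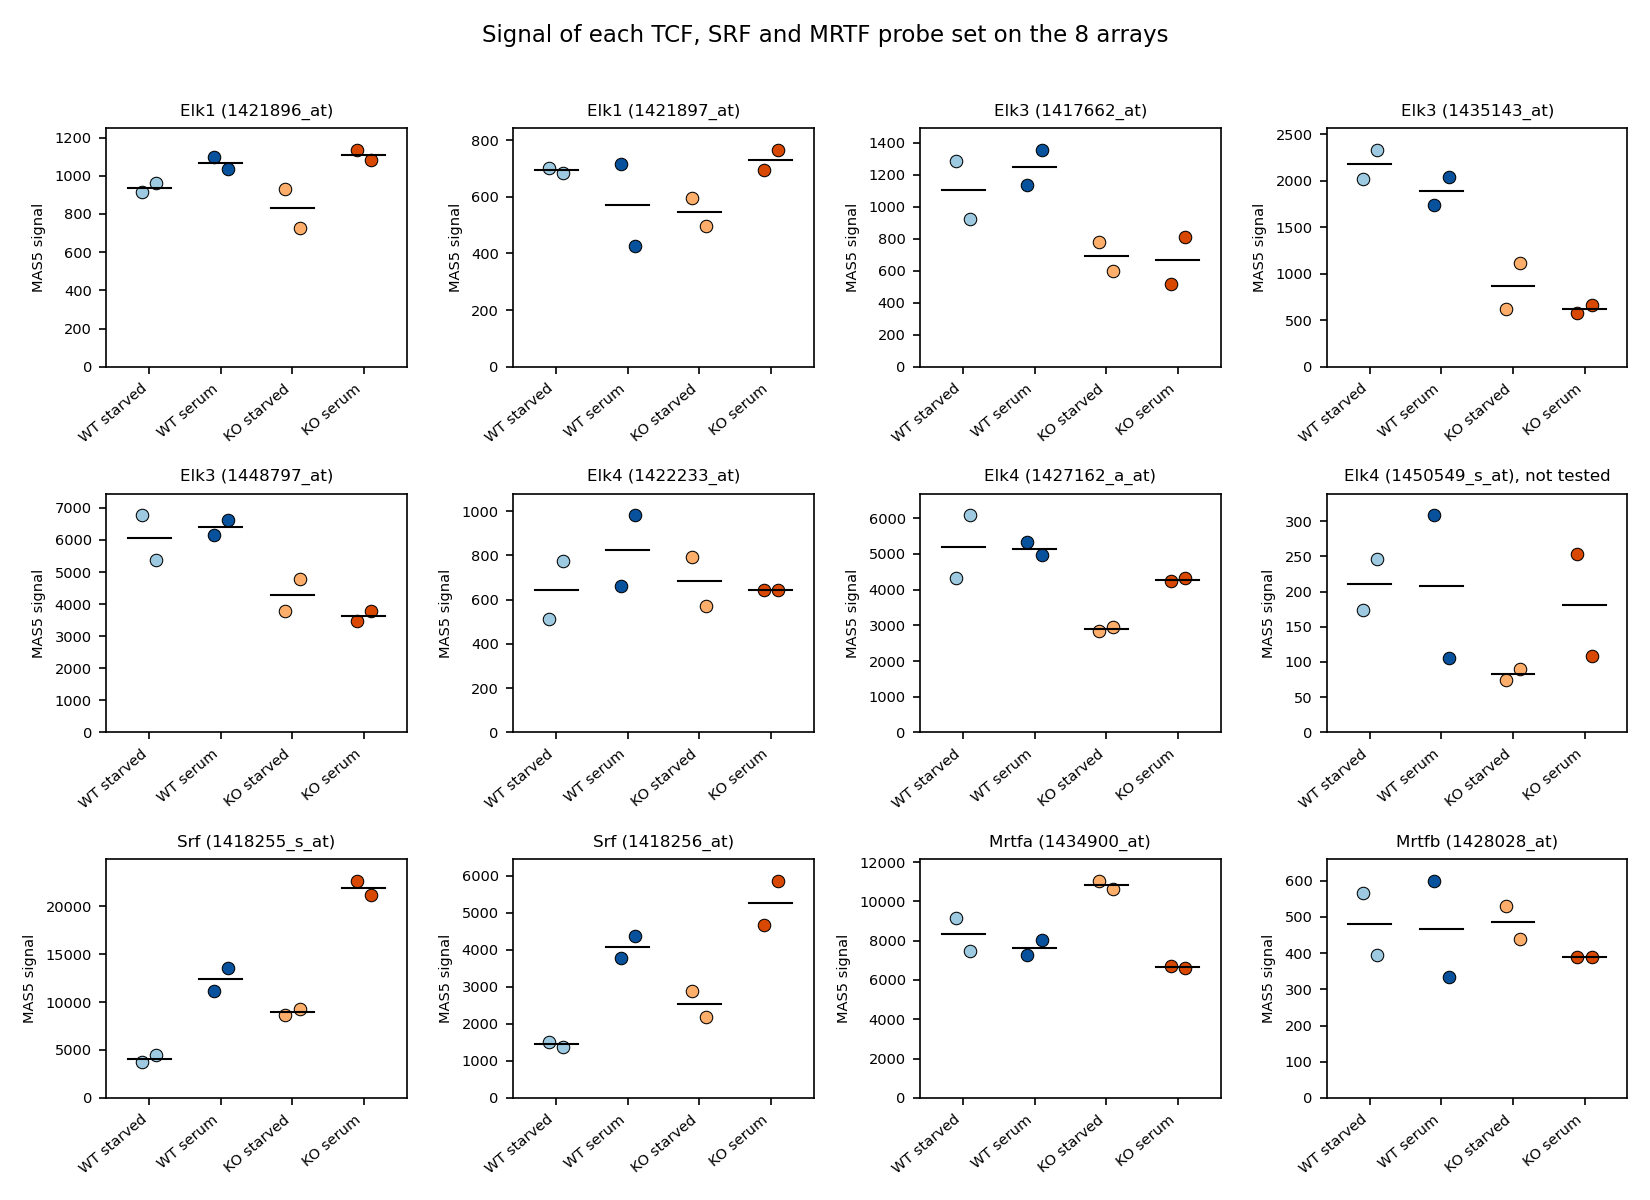
MAS5 signal (linear, vertical axis) of the 12 probe sets of Elk1, Elk3, Elk4, Srf, Mrtfa and Mrtfb in the 4 groups. Points are single arrays and bars are means of 2 arrays. Both Srf probe sets are lowest in starved WT and highest in serum KO cells (means of 4108 and 21912 for 1418255_s_at), and the 3 Elk3 probe sets are lower in KO cells.

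Srf was the member that serum raised in both genotypes. Its brighter probe set, 1418255_s_at, read 3781 and 4434 in starved WT cells and 11168 and 13546 after serum. In KO cells it read 8692 and 9270 when starved and 22664 and 21160 after serum. All arrays with serum lay above all arrays without it, and the starved KO arrays already lay above the starved WT arrays. The rise was about 3-fold in WT cells (log2 1.58 ± 0.128 SE, adjusted p = 5.3e-05) and 2.44-fold in KO cells (log2 1.29 ± 0.128, adjusted p = 0.000109). The second Srf probe set, 1418256_at, gave 1520 and 1380 in starved and 3765 and 4374 in serum-treated WT cells, and 2892 and 2171 in starved and 4654 and 5861 in serum-treated KO cells. Here the log2 rise was 1.48 ± 0.176 in WT (adjusted p = 0.000868) and 1.05 ± 0.176 in KO cells (adjusted p = 0.0025). The s in the first name marks probes that may match transcripts of more than 1 gene, and the probe set without it moved the same way, with r = 0.95 between them over the 8 arrays.

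Starved KO cells held more Srf RNA than starved WT cells. The difference was 2.19-fold on 1418255_s_at (log2 1.13 ± 0.128, adjusted p = 6.6e-05) and 1.72-fold on 1418256_at (log2 0.78 ± 0.176, adjusted p = 0.00442). After serum the KO arrays of the first probe set were still higher, 1.78-fold (log2 0.83 ± 0.128, adjusted p = 0.000458). The second had its KO arrays above its WT arrays but did not pass, at 0.36 ± 0.176 (adjusted p = 0.111), and passed at 0.53 (adjusted p = 0.0278) when each array was centred on its median. On both probe sets the levels ran in the order starved WT, starved KO, serum WT and serum KO. Starved KO and serum WT arrays did not overlap on either probe set, a contrast that was not tested. The interaction, which is the KO serum response minus the WT serum response, was -0.30 (95% interval -0.70 to 0.11, adjusted p = 0.411) and -0.42 (-0.97 to 0.13, adjusted p = 0.395). These intervals, each for 1 probe set and not adjusted for the number tested, reach from a KO response that is clearly smaller to one that is slightly larger.

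The DNA just before the Srf start is shown because it holds the binding element of the protein that Srf encodes, and Srf was the member that serum raised in WT cells. RefSeq promoter windows of GRCm38.p6, which run from 250 bases before to 50 after a transcription start, were found for all 6 genes, 11 windows in all. The stretch below is the minus strand of chr17:46556163-46556412, the 250 bases that end at the Srf start, with CArG boxes in capitals.

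Srf: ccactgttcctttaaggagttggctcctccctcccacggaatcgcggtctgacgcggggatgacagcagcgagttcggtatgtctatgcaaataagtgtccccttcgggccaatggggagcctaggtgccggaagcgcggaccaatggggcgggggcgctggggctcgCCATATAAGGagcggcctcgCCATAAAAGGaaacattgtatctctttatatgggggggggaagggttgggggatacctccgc

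Srf had 2 CArG boxes there, 82 to 73 and 62 to 53 bases before the start. A CArG box, searched as CC, 6 letters of A or T and GG on both strands, was in 535 of 32851 windows (1.63%), and 6 windows (0.0183%) held 2 of them. Those were the windows of Srf, Dusp5, Ceacam11, Gm33934 and, with 2 windows, Gm39572. No window of Elk1, Elk3, Elk4, Mrtfa or Mrtfb held a CArG box. An EGR site (GCGTGGGCG or GCGGGGGCG, in 3.47% of windows) lay 101 to 93 bases before the Srf start, apart from the CArG boxes, and Elk3 and 1 of 3 Elk4 windows held one too. The ETS site CCGGAAGT, the kind of element that TCFs themselves can bind (3.89% of windows), was in 1 Elk4 window, on the plus strand at chr1:132007552-132007559, and the AP-1 site TGACTCA (5.2% of windows) in 1 of 3 Mrtfb windows. Only exact letters were counted. The Srf stretch above holds ccggaagc, which differs from that ETS site in its last letter, so other ETS-like elements in these windows were not searched for. That Elk4 site, in capitals with 10 bases to each side, follows because Elk4 was the TCF with a called serum response.

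Elk4: ggcccctcccCCGGAAGTgacgctcgcg

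Such matches describe letters in a window and were not measured as binding here.

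**Figure D2:**
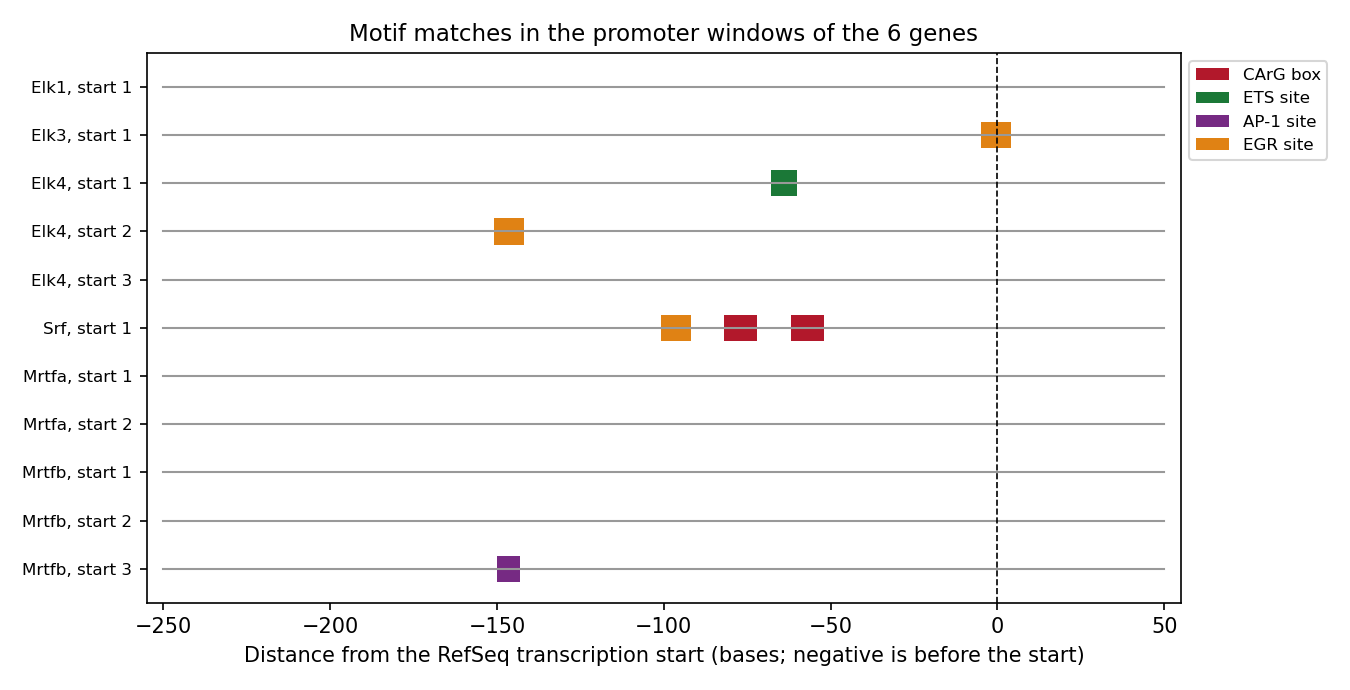
Motif matches in the 11 RefSeq promoter windows of the 6 genes, by distance in bases from the transcription start (dashed line). Srf alone among them has CArG boxes, 2 of them between 82 and 53 bases before its start, with an EGR site further out.

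Among the TCF genes, Elk1, whose protein is a partner of MED23, was not called in any comparison. Its brighter probe set, 1421896_at, read 915.0 and 960.9 in starved WT, 1100 and 1037 in serum WT, 931.9 and 726.2 in starved KO and 1136 and 1084 in serum KO cells. The serum arrays lay just above the starved arrays in both genotypes. The log2 serum differences were 0.19 ± 0.182 in WT (adjusted p = 0.663) and 0.42 ± 0.182 in KO cells (adjusted p = 0.121). The KO minus WT differences were -0.19 in starved and 0.05 in serum-treated cells, with 95% intervals of -0.59 to 0.22 and -0.35 to 0.46. The dimmer probe set, 1421897_at, read 702.7 and 683.9, then 714.2 and 426.4 after serum, in WT cells, and 596.7 and 496.8, then 695.1 and 765.8, in KO cells. Its values spread more than those of the first probe set in the serum groups and less in the starved groups, and the probe sets correlated at r = 0.44 over the 8 arrays. Its interaction of 0.73 (95% interval -0.10 to 1.56, adjusted p = 0.323) was not called.

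Elk3, also called Net, is a TCF that represses until it is phosphorylated, and it was lower in KO cells. Its brightest probe set, 1448797_at, read 6772 and 5378 in starved WT and 6146 and 6636 in serum WT cells, against 3790 and 4789 in starved KO and 3472 and 3780 in serum KO cells. The KO and WT arrays did not overlap in either state. Probe set 1435143_at read 2023 and 2332, then 1739 and 2044, in WT cells, and 626.6 and 1119, then 579.3 and 661.6, in KO cells, again without overlap. Probe set 1417662_at read 1288 and 921.2, then 1138 and 1356, in WT cells, and 781.2 and 599.6, then 518.5 and 810.0, in KO cells. The KO level was below the WT level on all 3, but their sizes differ.

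On 1435143_at the KO cells were lower by 2.56-fold when starved (log2 -1.36 ± 0.249, adjusted p = 0.00139) and by 2.99-fold after serum (log2 -1.58 ± 0.249, adjusted p = 0.000525). On 1448797_at they were lower by 1.42-fold (log2 -0.50 ± 0.154, adjusted p = 0.022) and 1.76-fold (log2 -0.82 ± 0.154, adjusted p = 0.00157). The starved call on that probe set was lost without starved WT array 1 (-0.34, adjusted p = 0.171) or starved KO array 1 (-0.33, adjusted p = 0.132). On 1417662_at the starved difference of -0.66 did not pass (adjusted p = 0.0629), and passed without serum KO array 1 or 2 (adjusted p = 0.0456 and 0.0477). The difference after serum did pass there (log2 -0.92 ± 0.263, adjusted p = 0.015), but not without serum WT array 2 (adjusted p = 0.0888) or serum KO array 1 (-0.61, adjusted p = 0.126). No Elk3 probe set was called for serum in either genotype, though a fall is not excluded, as the KO interval of 1435143_at ran from -0.98 to 0.13. The log2 differences were 0.19, -0.20 and 0.08 in WT and -0.08, -0.43 and -0.23 in KO cells, and only -0.84 on 1435143_at without starved KO array 1 passed (adjusted p = 0.0225).

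Elk4, or SAP-1, gave different answers on its probe sets. The brightest, 1427162_a_at, whose suffix marks probes shared by transcript variants of a gene, read 4328 and 6084 in starved WT and 5329 and 4966 in serum WT cells. In KO cells it read 2848 and 2954 when starved and 4230 and 4318 after serum. The starved KO arrays were thus below all others. Starved KO cells were lower than starved WT cells by 1.76-fold (log2 -0.82 ± 0.157, adjusted p = 0.00177), and Elk4 rose 1.47-fold with serum in KO cells (log2 0.56 ± 0.157, adjusted p = 0.0292). That rise did not pass when any one of the 4 KO arrays was left out (adjusted p = 0.0728 to 0.122). In WT cells the serum difference was 0.00 ± 0.157, and after serum KO and WT cells differed by -0.27 (adjusted p = 0.182). The interaction of 0.55 had a 95% interval of 0.06 to 1.05 by itself and an adjusted p of 0.216 over all probe sets, so a different response of the genotypes was not called.

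The dimmer tested Elk4 probe set, 1422233_at, read 511.9 and 776.4, then 662.4 and 981.1, in WT cells, and 793.5 and 571.4, then 644.1 and 641.9, in KO cells. Its arrays overlapped in every comparison of 2 groups except KO against WT after serum, and it was not called in any comparison, with a starved KO minus WT difference of 0.09 (95% interval -0.53 to 0.72). That interval does not hold the -0.82 of the bright probe set, and the correlation of these probe sets over the arrays was r = 0.25, so the Elk4 differences rest on 1 probe set. The untested 1450549_s_at read 173.7 and 246.8, then 308.3 and 106.0, in WT cells and 75.0 and 90.3, then 253.7 and 108.9, in KO cells.

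Mrtfa, also known as Mkl1 or Mal, fell with serum in KO cells. Probe set 1434900_at read 9169 and 7482 in starved WT, 7266 and 8028 in serum WT, 11051 and 10645 in starved KO and 6697 and 6610 in serum KO cells. The starved KO arrays were the highest of the 8 and the serum KO arrays the lowest. The fall in KO cells was 1.63-fold (log2 -0.70 ± 0.123, adjusted p = 0.00321), while the WT difference was -0.12 ± 0.123 (adjusted p = 0.686). Centring each array on its median moved the median of all tested probe sets from -0.13 to 0.03 in the KO serum comparison, from -0.06 to 0.05 in the interaction and from -0.07 to 0.09 between the genotypes after serum. Mrtfa then fell by 0.55 in KO cells (adjusted p = 0.0115). The interaction of -0.59 ± 0.174 (95% interval -0.97 to -0.20, unadjusted p = 0.00693) did not pass over all probe sets (adjusted p = 0.108), so the genotypes were not shown to differ in this response.

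Starved KO cells held 1.31-fold more Mrtfa than starved WT cells (log2 0.39 ± 0.123, adjusted p = 0.0248). That call was lost without starved WT array 2 (0.24, adjusted p = 0.187) and without starved KO array 1 or 2 (adjusted p = 0.0782 and 0.0526). After serum the difference was -0.20 (adjusted p = 0.203), with the WT arrays above the KO arrays, and after median centring it was -0.04 (adjusted p = 0.834). Mrtfb, or Mkl2, read 567.3 and 395.3, then 600.2 and 333.9, in WT cells and 529.9 and 440.0, then 389.0 and 390.3, in KO cells. Its arrays overlapped except between starved and serum KO cells, and its differences lay between -0.30 and 0.03 with a 95% half-width of 0.72 for the comparisons of 2 groups, so smaller changes of this gene were not detectable here.

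**Figure D3:**
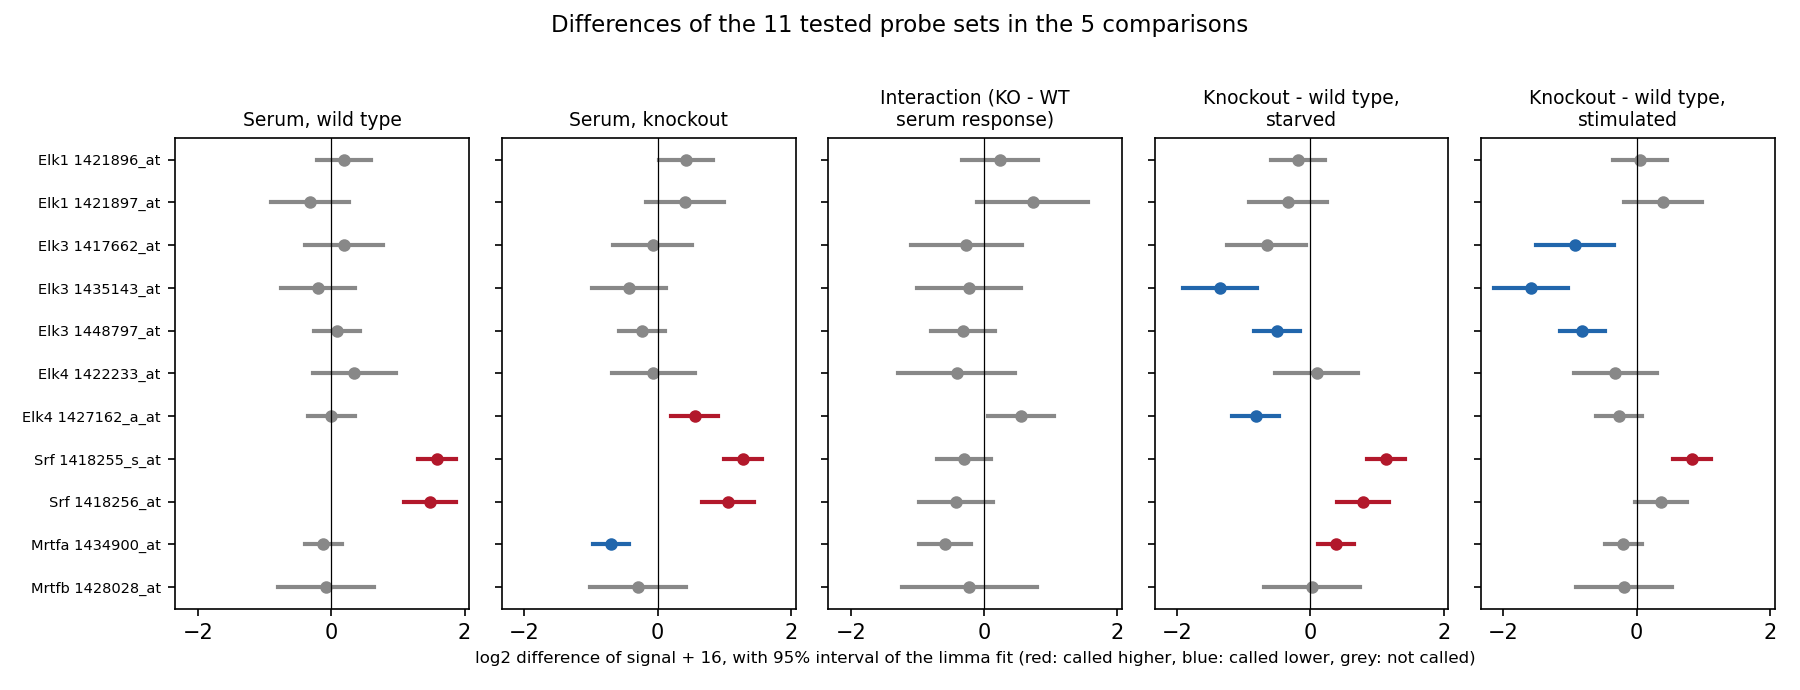
Log2 differences with 95% limma intervals (horizontal axis, signal plus 16) of the 11 tested probe sets in the 5 comparisons. Red points were called higher, blue ones lower and grey ones not called. Srf 1418255_s_at is called higher in 4 of 5 panels, Elk3 lower in both genotype panels (on 2 probe sets when starved and 3 after serum), and no point is called in the interaction panel.

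Set against all 14947 tested probe sets, serum in WT cells was called for 2 of the 11 member probe sets (18.2%), both of Srf and both higher, where 4.14% of all were called, 2.44% higher and 1.7% lower. The median member difference was 0.08 and that of all probe sets -0.05. In KO cells 4 of 11 were called, those of Srf and 1 of Elk4 up and Mrtfa down, where 23.1% of all were called, 9.33% higher (1395) and 13.8% lower (2060). After median centring that split was 1955 higher and 992 lower. The interaction was called for 0 of 11 by limma, where 2.69% of all were called, 1.61% higher (241) and 1.08% lower (161), or 353 and 108 after median centring. For 2 of the 11, of Mrtfa and Elk4, the unadjusted p was under 0.05.

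In starved cells 6 of 11 were called between the genotypes (3 higher and 3 lower in KO cells), where 47.6% of all were called, 22.8% higher and 24.8% lower. After serum 4 of 11 were called (1 higher and 3 lower), where 50.2% of all were called, 22.7% higher (3400) and 27.5% lower (4106), or 4474 and 3075 after median centring. Shares of 54.5% and 36.4% are near these backgrounds, so the members differed between the genotypes about as often as probe sets in general. Groups did not overlap for 3 of 11 members in WT serum (50.3% of all), 8 in KO serum (62.5%), 8 in the starved genotype comparison (73.3%) and 8 after serum (78.3%). The serum and genotype comparisons share arrays, so the same starved KO values enter several of them.

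The genes on either side of these factors were described through lists chosen with earlier results of these data known, each gene by its brightest tested probe set. SRF targets usually assigned to the TCFs rose with serum in 13 of 14 cases in WT cells, with a median log2 difference of 2.98, and in 14 of 14 in KO cells, with a median of 4.23. The medians of all tested probe sets were -0.05 and -0.13. Of this list 92.9% were called in WT serum, 100% in KO serum and 42.9% in the interaction. For this and the following lists, the shares of all tested probe sets were 4.14%, 23.1% and 2.69%. Fosb rose by 6.13 and 5.83, and Nr4a1 by 5.19 and 5.30, in WT and KO cells, and Pip5k1a was the one not called in WT cells. The response was larger in KO cells for 6 of the 14 and smaller for none by limma (8 and 0 at an unadjusted p under 0.05), led by Dusp1, a MAP kinase phosphatase, at 2.07, Egr1 at 2.01 and Zfp36, an RNA decay factor, at 1.24. That 6 became 2 without serum KO array 1 and 3 without serum KO array 2. In starved KO cells 6 of the 14 were lower and 2 higher than in WT (57.1% called, against 47.6% of all probe sets), or 8 and 4 without starved KO array 1. After serum 4 were higher and 0 lower by limma (5 and 0 unadjusted), which is 28.6% called against 50.2% of all. That count was 2 higher without serum KO array 2, 8 higher with only the arrays compared, 6 higher after median centring, and 3 higher with 1 lower after quantile normalization.

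SRF targets usually assigned to the MRTFs gave 6 rises among 24 in WT cells, with a median of 0.15, and 7 in KO cells, with a median of 0.14. These are 25% and 29.2% called, against 4.14% and 23.1% of all probe sets. The 6 became 3 without starved WT array 1 or either serum WT array. Itga5, an integrin subunit, rose by 1.50 in WT and 2.25 in KO cells, and Ccn1, a matrix protein, by 1.19 in WT cells. The KO response was larger for 3, Cnn1 at 1.67, Ccn2 at 1.14 and Fhl1 at 0.95, or for 1 without serum WT array 2 or serum KO array 2. Between the genotypes 19 of 24 were called in starved cells, 13 higher and 6 lower in KO, and 13 of 24 after serum, 12 higher and 1 lower. These are 79.2% and 54.2% of the list, against 47.6% and 50.2% of all probe sets, so the share after serum is near the background. Myl9, a myosin light chain, was higher by 1.57 when starved and Tuft1 was lower, at -3.56. The median was 0.37 when starved and 0.32 after serum, against -0.01 and -0.07 in all probe sets.

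A CArG box was in a promoter window of 3 of the 11 TCF-assigned targets that had a window (Egr2, Pip5k1a and Zfp36) and of 5 of 20 MRTF-assigned ones (Cnn2, Vcl, Myl9, Fhl2 and Fhl1). Of all genes with a window 1.81% held one. Of the genes called higher with serum in WT cells 9 of 206 with a window (4.37%) held one, and in KO cells 31 of 740 (4.19%), against 114 of 6895 tested genes (1.65%). Boxes outside these windows, or with other letters, were not searched for, so a gene without a match may still hold one.

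**Figure D4:**
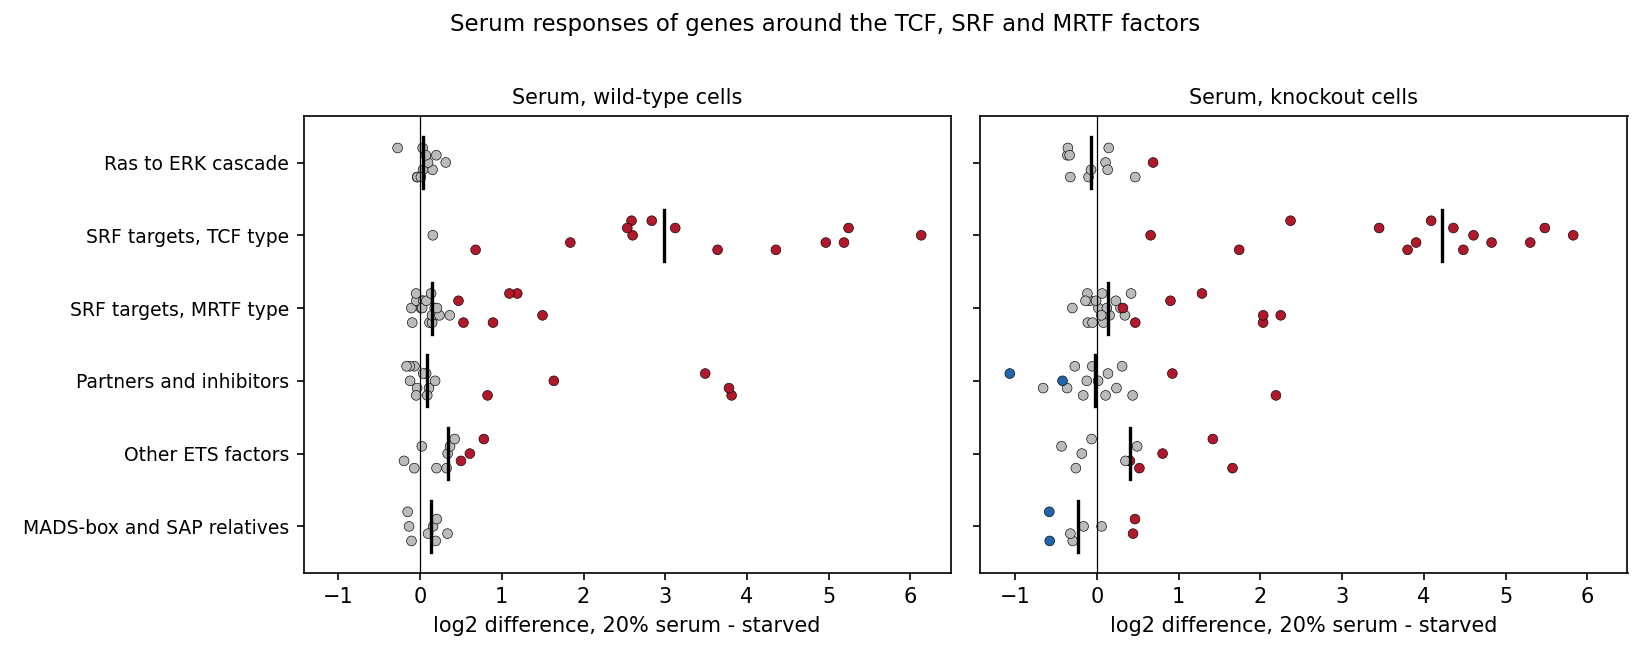
Log2 serum differences of genes around the TCF, SRF and MRTF factors, 1 point per gene, in WT (left) and KO cells (right). Red points were called higher, blue lower and grey not called, and vertical bars are list medians. The TCF-assigned targets lie far to the right in both genotypes, with medians of 2.98 and 4.23, while the median of the Ras to ERK cascade is near 0.

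Of 11 tested genes from Ras to ERK, the cascade that phosphorylates the TCFs, 0 were called in WT cells by limma (1 at an unadjusted p under 0.05) and 1, the ERK-activated kinase gene Rps6ka3, rose in KO cells, by 0.69. That is 9.09% called in KO serum, against 23.1% of all. Without starved WT array 1 or 2, 1 rose and 2 fell in KO cells. Between the genotypes 3 were higher and 3 lower in starved KO cells, with Ksr1, a scaffold of the cascade, higher by 1.20 and Rps6ka3 lower, at -0.88, and 2 were higher and 3 lower after serum. The shares called, 54.5% and 45.5%, are near the 47.6% and 50.2% of all probe sets. After serum 1 was higher and 2 lower without serum WT array 1, serum WT array 2 or serum KO array 1. The interaction was called for 0 of 11 (3 unadjusted).

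Among 16 partners and inhibitors of TCFs and SRF, the Id genes encode proteins that can keep TCFs off DNA. The shares called were 31.2% in WT serum and 25% in KO serum, against 4.14% and 23.1% of all. The KO serum share is thus near the background. In WT cells 5 of the 16 rose, Id1 by 3.81, Id2 by 3.78 and Id4 by 3.49 among them, and in KO cells 2 rose and 2 fell (1 and 1 without serum KO array 2). Id2 averaged 104.7 and Id4 189.6 in starved WT cells, below those arrays' 40th percentiles of 463.2 and 483.6, so the size of their differences from that group depends on the pseudocount: with the largest one tried, 16 times that used here, the WT rises were 2.36 and 2.52. After serum Id2 averaged 1596 in WT cells, and in KO cells it averaged 2340 when starved and 1475 after serum. The interaction was called negative for 5 and positive for 1, which is 37.5% of the list against 2.69% of all probe sets. Id2 was at -4.44 (-2.95 with the largest pseudocount), Id1 at -3.38 (-3.13) and Id4 at -2.57 (-1.66). Mean Id2 rose with serum in WT but fell in KO cells. In starved KO cells 7 were higher and 2 lower, Id2 by 4.33 (2.85) and Id4 by 3.63 (2.64), which is 56.2% called against 47.6% of all. After serum 4 were higher and 4 lower, 50% against 50.2%, with Nfatc4 higher by 1.87 and Smad3 lower, at -1.08.

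Of 11 other ETS factors tested, 27.3% were called in WT serum and 45.5% in KO serum, against 4.14% and 23.1% of all. In WT cells 3 rose, Erf by 0.78, Etv3 by 0.61 and Elf2 by 0.50. That count was 0 without starved WT array 1, starved WT array 2 or serum WT array 1, and 1 without serum WT array 2 or either serum KO array. In KO cells 5 rose, or 3 without serum KO array 1 or 2, with Elf1 up by 1.66. Elf1 was also the one whose response was larger in KO cells, by 1.33, a call lost without starved WT array 1, starved KO array 2, serum WT array 2 or either serum KO array. Ets2 and Ets1 were lower in starved KO cells, at -2.17 and -1.23, among 4 lower and 3 higher (63.6% called, against 47.6% of all). After serum 5 were lower and 3 higher (72.7%, against 50.2%), or 2 and 3 without serum WT array 1 and 2 and 2 without serum KO array 1.

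Of 8 MADS-box and SAP-domain relatives, 0 were called in WT serum (1 unadjusted) and 0 in the interaction (1 unadjusted), while in KO serum 2 rose and 2 fell. Those were 1 and 0 without starved KO array 2 or serum KO array 2, and 0 and 0 without serum KO array 1. Mef2c, a MADS-box factor like SRF, averaged 240.5 in starved WT and 2818 in starved KO cells, the WT value being below the 40th percentile. The difference was 3.64, or 2.66 with the largest pseudocount tried, and Mef2c was the 1 higher beside 3 lower in each serum state, 50% called against 47.6% and 50.2% of all (1 lower when starved without starved WT array 1). After median centring 2 of the 8 rose and 0 fell in KO serum. In the main fit the KO serum share called was 50% in this list, against 23.1% of all. Among the Mediator tail subunits, which follow, it was 22.2%, near that background. Of 9 Mediator tail subunits beside MED23, 0 were called in WT serum (0 unadjusted), and 2 fell in KO serum, Med24 by 1.03 and Med25 by 0.49, or 1 after median centring or without starved KO array 1 or either serum KO array. The Med24 interaction of -0.84 (adjusted p = 0.0492) was the one called in this list, and was lost under 12 of the alternatives, among them leaving out any array other than starved KO array 1. When starved 4 were lower and 2 higher in KO cells (66.7% called, against 47.6% of all), or 2 and 1 without starved WT array 2 or starved KO array 2. After serum 5 were lower and 2 higher (77.8%, against 50.2%), or 3 and 1 without serum WT array 1 and 4 and 0 without serum KO array 1.

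The genes most like each member over the 8 arrays were found by Pearson r of log2 signal, as a description in which 4 groups of 2 arrays leave few independent points. For Srf they were Ap5m1 (r = 0.984), Wdr1 (0.981) and Nfkbiz (0.979), and 0.623% of 13797 probe sets of other genes had r over 0.9. Nfkbiz averaged 656.9, 3275, 1758 and 10016 in starved WT, serum WT, starved KO and serum KO cells, in the same order as Srf. For Elk3, whose pattern is mainly a genotype difference, 7.05% of probe sets passed 0.9, and the closest were Als2cl (0.989), Tapbp (0.987) and Rbm14 (0.984). The closest to Elk4 were Nars, Slc30a4 and Ubap2l (0.982, 0.975 and 0.969), to Mrtfa Keap1, Vps41 and Dipk1b (0.984, 0.972 and 0.969), and to Elk1 Pole4, Cdkn1a and Purb (0.975, 0.974 and 0.961). For Mrtfb, near the filter, 0.0362% passed 0.9, with Adcy3, Cryz and Hagh closest (0.972, 0.951 and 0.934). Between members of different genes the lowest r was -0.82, of Elk1 1421896_at and Mrtfa.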

How the data were processed

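The values the authors deposited are signal intensity on a linear scale, 1 per probe set and array. The submitters' processing notes name MAS5 as the software, and its version and scaling target are not given in the sources used here. Of 22690 probe sets, 64 controls were left out. The platform annotation gave the gene names: 20380 probe sets named 1 gene, 691 several and 1555 none. From log2 of signal plus 16, limma 3.58.1 in R 4.3.3 fitted 4 group means over 8 arrays with eBayes and a mean-variance trend (4 residual and 6.07 prior degrees of freedom). Tests were two-sided with Benjamini-Hochberg adjustment over 14947 probe sets. With 2 arrays against 2, an exact permutation test cannot give a p under 0.333. Alternatives were other pseudocounts, quantile normalization, median centring, other filters, no trend, only the arrays compared, the set number as a block and leaving out each array. The procedure was tested on simulated data. Named are all member probe sets, Med23, up to 3 called genes per list and comparison with the smallest p, and the 3 genes most like each member; a few other list genes or values were chosen after they were seen. The members, lists and tests were chosen with earlier results of these data known. Sequences are from RefSeq, GRCm38.p6. Figures were drawn with matplotlib 3.10.9. The results of 1 gene list are not reported here.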

Additional observations from a re-analysis of the deposited data

Results flagged for a closer look

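The Mrtfa arrays of KO and WT cells did not overlap in either serum state and lay in opposite orders, with a KO minus WT log2 difference of 0.39 when starved, which was called, and of -0.20 after serum, which was not (adjusted p = 0.203, and -0.04 after median centring). The test of the change between the states, the interaction, did not pass (adjusted p = 0.108), and 78.3% of all probe sets had arrays that did not overlap after serum. The KO minus WT serum response, the interaction, was called positive for Dusp1 (2.07), Egr1 (2.01), Cnn1 (1.67), Elf1 (1.33), Zfp36 (1.24), Ccn2 (1.14) and Fhl1 (0.95). It was called negative for Id2 (-4.44, or -2.95 with the largest pseudocount tried), Id1 (-3.38), Id4 (-2.57, or -1.66) and Med24 (-0.84). A negative value is not always a smaller response, as Med24 fell with serum in KO cells. Mean Id2 rose in WT but fell in KO cells. The Med24 and Elf1 calls were lost under several of the alternatives. Without a trend in the variance, the positive calls fell from 6 to 3 among the TCF-assigned targets. They fell from 3 to 1 among the MRTF-assigned targets, while the partners and inhibitors kept 5 negative calls and 1 positive call.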

How the results depend on the processing

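Under 18 alternatives, or 17 for the interaction, the counts of called member probe sets stayed within 1.5 times their values. Of 954 member results under an alternative, 935 stayed on their side of the threshold, 15 lost a call, 4 gained one and none turned a call around, while 24 values called in neither changed sign. Without a trend in the variance, the Elk4 rise in KO cells (adjusted p = 0.0607) and the starved Mrtfa difference (adjusted p = 0.0568) were not called, and with only the arrays compared neither were the starved Mrtfa (adjusted p = 0.0598) and Elk3 1448797_at differences (adjusted p = 0.0502). Over all probe sets the interaction count of 402 became 250 with no filter and 214 without a trend. Leaving out single arrays gave 127 to 501 calls for the interaction, 316 to 699 for WT serum and 1573 to 3226 for KO serum. With the set number as a replicate block 634, 3494 and 399 probe sets were called in WT serum, KO serum and the interaction, and all 55 member tests kept their side of the threshold. Over 6 pairs of groups, deviations of same-numbered arrays correlated at 0.21 between the 2 WT groups and 0.097 between the 2 KO groups. Across genotypes they correlated at -0.03 to 0.006. The labels do not say what the set numbers mark, and they were not taken as pairs. A pairing of starved and serum arrays within each genotype was not tested, because the block was shared by both genotypes. Precision is limited by 2 arrays a group.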
